A study of Mus musculus with 4 samples.

Results

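The genes described here are 9 markers and signals of the testis interstitium: the stromal progenitor and fibroblast genes Nr2f2, Tcf21, Ly6a, Dcn and Lum, the platelet-derived growth factor (PDGF) receptor genes Pdgfra and Pdgfrb, and the PDGF ligand genes Pdgfa and Pdgfb. They were chosen by name, with earlier results of these data known, and all 9 stood in the deposited table, among 44509 named genes. All 9 also passed the filter for low values, among 19837 genes tested. RNA came from mouse testis in 4 libraries, 2 from the busulfan model of oligozoospermia treated with Cus-1 and 2 from the busulfan model alone, so both groups carried busulfan, which alkylates DNA and depletes the dividing cells of the germ line. Cus-1 is, per the series title, a resin glycoside of a cuscutae extract. The labels give no strain, age, dose, time or batch, speak of tissue taken from each group, and do not say whether the 2 libraries of a group came from separate animals, so p-values measure only the spread between these libraries. What each group received rests on the source label, since the titles of the busulfan libraries begin with BPA and those of the treated ones with CUS2.

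The interstitium lies between the seminiferous tubules and holds Leydig cells, vessels, macrophages and a stroma of fibroblast-like cells. Some of these stromal cells act as progenitors of the steroid-making Leydig cells. PDGF ligands are secreted dimers that bind 2 receptor tyrosine kinases on mesenchymal cells. In the mouse testis, PDGF-A made in the tubules acts on interstitial cells with the alpha receptor, and mice without Pdgfa lack adult Leydig cells. PDGF-B from endothelium acts mainly on the beta receptor of pericytes and smooth muscle.

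Of the 9 genes, 8 had both Cus-1 values below both busulfan values, and 1, the ligand gene Pdgfa, had both above. Among all genes tested, the groups did not overlap in 68.4%, with 31.7% lower and 36.6% higher with Cus-1. The median log2 fold change of the 9 was -0.71, against 0.04 for all genes tested. No member passed limma's adjusted threshold of 0.05, which was passed by 0.00% of genes, and 4 members (Nr2f2, Pdgfra, Lum and Ly6a) were lower at an unadjusted p under 0.05, where 9.96% of all genes were lower and 28.0% differed in either direction. That count was 1 without busulfan library 1. Fold changes are Cus-1 minus busulfan on the log2(FPKM + 1) scale, where FPKM scales the fragments of a gene to its length in kilobases and to each M (1000000) of fragments mapped. In whole tissue, fewer cells of a type and less RNA per cell cannot be told apart.

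**Figure D1:**
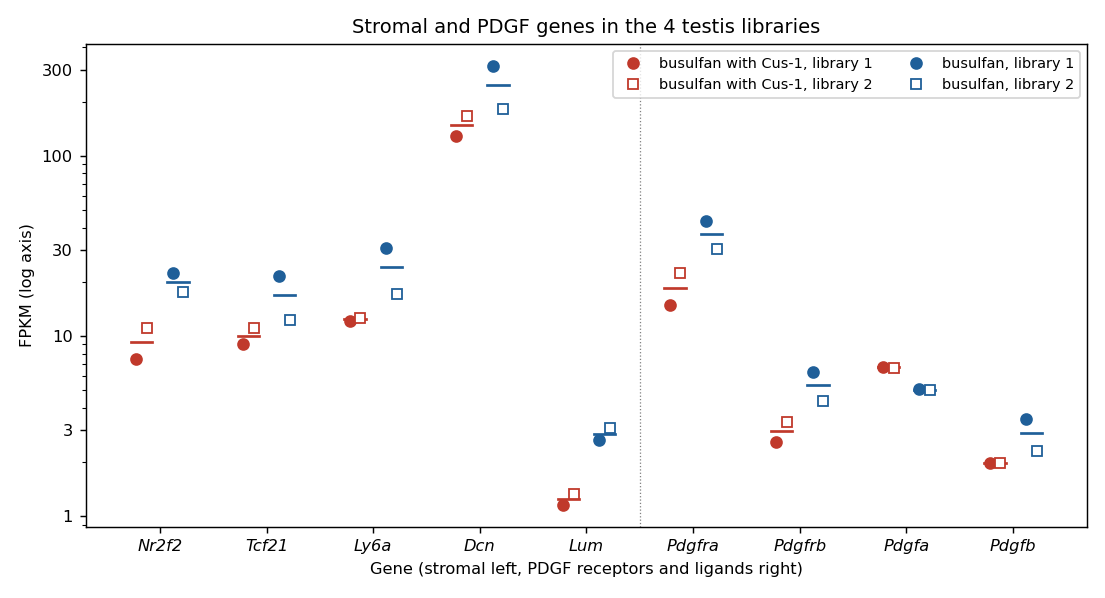
FPKM on a log axis for each gene in each of the 4 libraries, busulfan with Cus-1 in red and busulfan in blue, with a bar at each group's mean (n = 2 each). For 8 genes both red points lie below both blue points, and for Pdgfa both lie above.

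Summed FPKM ran from 726041 to 742689 per library, and the depth, estimated from the steps between low values, was about 12.7 to 13.8 M fragments. Meiotic and postmeiotic germ cell genes moved with the groups: all 18 of a list were higher in both Cus-1 libraries. That list was chosen with earlier results of these data known. Of all genes tested, 36.6% were higher in this way. The 18 summed to 15001 and 7222 FPKM in Cus-1 libraries 1 and 2, against 4523 and 5313 in busulfan libraries 1 and 2. Tnp1, Prm1 and Prm2 made up 3062.21, 2926.26 and 2707.68 FPKM of the sum in Cus-1 library 1. Each library is scaled to its own total, and none of the 18 was at 0 in all libraries. Their part in the lower stromal levels was not tested, and values centred on somatic genes follow at the end.

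Nr2f2 encodes COUP-TFII, an orphan nuclear receptor of interstitial and Leydig progenitor cells. It was at 7.44 and 11.05 FPKM with Cus-1, against 22.44 and 17.53 FPKM with busulfan alone. The groups did not overlap, and the log2 fold change of -1.05 (SE 0.25, limma adjusted p = 0.152) was larger than the gaps within groups, which, library 1 minus library 2 on the same scale, were -0.51 for Cus-1 and 0.34 for busulfan. Its mean was 9.25 ± 2.55 FPKM with Cus-1 against 20.0 ± 3.47 FPKM with busulfan (SD, n = 2 each). On the log2(FPKM + 1) scale its difference was the largest of the 9, while by the ratio of means Lum, at 0.433, was further from 1 than Nr2f2, at 0.463. With 1 library left out its limma adjusted p ran from 0.0279 to 0.517, the lowest without Cus-1 library 2, where 2289 of all genes passed. The gene lies on chromosome 7 (70351944 to 70366735, mm10) and is overlapped on the other strand by B130024G19Rik, listed at 0.99 and 1.04 FPKM with Cus-1 and at 3.2 and 1.61 FPKM with busulfan.

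Tcf21, a basic helix-loop-helix factor of mesenchymal progenitors, was at 9.02 and 11.1 FPKM with Cus-1, against 21.47 and 12.29 FPKM with busulfan. The groups lay apart only narrowly, since busulfan library 2 was near both Cus-1 libraries. Its log2 fold change was -0.65 (SE 0.30, limma adjusted p = 0.216), less than the gap of 0.76 between the 2 busulfan libraries, and it was -0.27 without busulfan library 1 and -1.03 without busulfan library 2. Tcf21 is on chromosome 10 (22817281 to 22820174), with the antisense gene Gm10824 below 1 FPKM in each library.

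Ly6a encodes Sca-1, a surface protein of mesenchymal progenitors that endothelial and blood progenitor cells also carry. It was at 12.2 and 12.66 FPKM with Cus-1, against 31.04 and 17.22 FPKM with busulfan (log2 fold change -0.85, SE 0.30, limma adjusted p = 0.167). The Cus-1 libraries were nearly equal, while the busulfan libraries were 0.81 apart on the log2 scale, and the difference was -0.44 without busulfan library 1. Of the 50-base words sampled from its transcripts, 11.5% also occurred in transcripts of 4 other genes, Ly6c1 holding the most, so its FPKM is uncertain. Ly6c1, of the same gene family on chromosome 15, overlapped between the groups at 15.83 and 27.35 FPKM with Cus-1 and 43.88 and 24.1 FPKM with busulfan.

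Dcn encodes decorin, a small leucine-rich proteoglycan that binds collagen fibrils, and was the most abundant of the 9. It was at 129.34 and 165.67 FPKM with Cus-1, against 315.63 and 181.88 FPKM with busulfan (log2 fold change -0.71, SE 0.31, limma adjusted p = 0.200). Busulfan library 2 was close to Cus-1 library 2, and the gap of 0.79 within busulfan exceeded the difference, which was -0.31 without busulfan library 1 and -1.10 without busulfan library 2. Lum, which encodes the related proteoglycan lumican, was at 1.16 and 1.34 FPKM with Cus-1, against 2.66 and 3.11 FPKM with busulfan (log2 fold change -0.79, SE 0.23, limma adjusted p = 0.152). Its groups were well apart, and here busulfan library 2 was the higher one. These values stand for only about 39 and 42 fragments with Cus-1 and 84 and 105 with busulfan, and the added 1 FPKM shrinks the difference: with 0.1 FPKM added it was -1.14.

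Dcn and Lum are neighbours on chromosome 10, Dcn at 97479609 to 97518143 and Lum at 97565128 to 97572703, on the same strand. The next genes in this row are Kera (97606879 to 97613692) and Epyc (97644068 to 97682454), both of the same proteoglycan family. Kera, known from the cornea, was listed at 0.03 and 0.09 FPKM with Cus-1 and at 0 in both busulfan libraries. Epyc, which encodes epiphycan, lay higher without overlap, at 19.06 and 16.93 FPKM with Cus-1 against 9.44 and 11.98 FPKM with busulfan (log2 fold change 0.70, SE 0.20, limma adjusted p = 0.152). Adjacent genes of this family thus had differences of opposite sign, and centred on Sertoli genes Epyc was at 1.39, Lum at -0.10 and Dcn at -0.02. Epyc had a limma adjusted p of 0.0553 on that scale and of 0.0271 when centred on Leydig genes (1.24), where 4251 of all genes passed.

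The wider proteoglycan family was mixed. Of the 9 tested of 15 listed genes beyond Dcn and Lum, 4 were lower and 3 higher in both Cus-1 libraries. Among all genes tested, 31.7% were lower and 36.6% higher in this way. The median of the 9 tested was -0.47. Rescaling to equal sums (-0.18) and no filter on low values (-0.04) let in more of the listed genes, so those medians cover more genes. The median of the 9 tested was -0.25 without busulfan library 1 and -0.13 without Cus-1 library 1. At an unadjusted p under 0.05, 1 was lower (Ecm2) and 1 higher (Epyc), against 9.96% and 18.0% of all genes, and 0 of the 9 passed without busulfan library 1 or without Cus-1 library 1, 3 without busulfan library 2 and 5 without Cus-1 library 2. Ecm2, a matrix protein, was at 5.37 and 7.91 FPKM with Cus-1 and at 14.87 and 9.67 FPKM with busulfan. Bgn, which encodes biglycan, was at 26.42 and 32.69 FPKM with Cus-1 and at 51.72 and 35.03 FPKM with busulfan. Ogn, which encodes osteoglycin, overlapped at 34.48 and 63.09 FPKM with Cus-1 and 61.84 and 81.56 FPKM with busulfan.

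Pdgfra encodes the alpha receptor and marks stromal and Leydig progenitor cells. It was at 14.82 and 22.39 FPKM with Cus-1, against 43.79 and 30.43 FPKM with busulfan, a mean of 18.6 ± 5.35 against 37.1 ± 9.45 FPKM (SD, n = 2 each). The groups did not overlap, and the log2 fold change of -0.96 (SE 0.28, limma adjusted p = 0.152) exceeded in size the gaps of -0.56 within Cus-1 and 0.51 within busulfan. With 1 library left out its limma adjusted p ran from 0.0301 to 0.517, the lowest without Cus-1 library 2, where 2289 of all genes passed. The gene lies on chromosome 5 (75152292 to 75198215), and its antisense gene Gm42802 was listed at 0 with Cus-1 and at 1.08 and 0.47 FPKM with busulfan.

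Pdgfrb, the beta receptor gene of pericytes and smooth muscle, was at 2.6 and 3.35 FPKM with Cus-1, against 6.31 and 4.38 FPKM with busulfan (log2 fold change -0.66, SE 0.26, limma adjusted p = 0.182). The groups did not overlap, with 0.44 between the busulfan libraries and -0.44 as the difference without busulfan library 1. Per length, Pdgfra stood above Pdgfrb in every library, by 5.7 and 6.68 times with Cus-1 and 6.94 and 6.95 times with busulfan. The groups of this receptor ratio lay close, with both Cus-1 values below both busulfan values (log2 difference -0.17, exact two-sided permutation p = 0.333, the smallest that 2 libraries against 2 can give), and the difference was -0.06 without Cus-1 library 1 and -0.28 without Cus-1 library 2.

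Pdgfa went the other way from the receptors. It was at 6.78 and 6.68 FPKM with Cus-1, against 5.07 and 5.05 FPKM with busulfan, or 1.33 times higher by the means. Libraries of a group were almost equal, with gaps of 0.02 and 0.00 on the log2 scale, and the log2 fold change was 0.35 (SE 0.19, limma adjusted p = 0.264) and ran only from 0.34 to 0.36 when each library was left out. The SE is drawn from the spread of genes of like level, so it is wider than these 4 values alone would give. The values stand for about 292 and 265 fragments with Cus-1 and 204 and 217 with busulfan. Pdgfa is on chromosome 5 (138976014 to 138997370), overlapped by the antisense gene 6330403L08Rik at 1.21 and 1.22 FPKM with Cus-1 and 1.7 and 1.03 FPKM with busulfan.

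Pdgfb is on chromosome 15 (79995874 to 80014977). Its level was 1.97 and 1.99 FPKM with Cus-1, against 3.47 and 2.31 FPKM with busulfan (log2 fold change -0.37, SE 0.26, limma adjusted p = 0.357). The groups lay apart by little, and the difference was -0.15 without busulfan library 1 and -0.58 without busulfan library 2. The ratio of Pdgfa to Pdgfb was 3.44 and 3.36 with Cus-1, against 1.46 and 2.19 with busulfan, which did not overlap (log2 difference 0.93, exact two-sided permutation p = 0.333). Ligand over receptor, chosen after the values were seen, also lay apart: Pdgfa over Pdgfra was 0.457 and 0.298 with Cus-1, against 0.116 and 0.166 with busulfan (log2 difference 1.41). Pdgfb over Pdgfrb was 0.758 and 0.594 with Cus-1, against 0.55 and 0.527 with busulfan (log2 difference 0.32, with 0.14 without Cus-1 library 1 and 0.49 without Cus-1 library 2). A ratio within a library does not depend on how that library was scaled, and it does not show which of its genes changed.

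**Figure D2:**
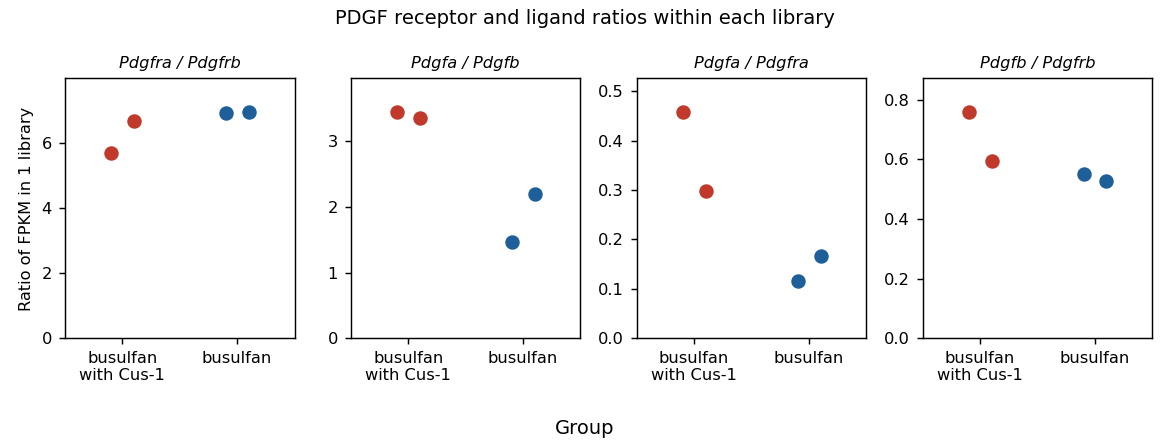
Ratio of FPKM of the genes named above each panel, each point being 1 library, with busulfan with Cus-1 on the left and busulfan on the right of a panel. The points of the groups lie close for Pdgfra over Pdgfrb and apart for Pdgfa over Pdgfb and Pdgfa over Pdgfra.

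By level, the order in both groups was Dcn first and Pdgfra next, then Ly6a, Nr2f2 and Tcf21 close together. In busulfan library 1, for example, Nr2f2 at 22.44 and Tcf21 at 21.47 FPKM were near each other, and with Cus-1 the means of Ly6a, Tcf21 and Nr2f2 (12.4, 10.1 and 9.25 FPKM) differed by little more than their spread. Pdgfa and Pdgfrb followed, Pdgfa with a mean of 6.73 FPKM and Pdgfrb with 2.98 FPKM in Cus-1 libraries, while with busulfan they were level at 5.06 and 5.34 FPKM. Pdgfb and Lum were lowest, at means of 1.98 and 1.25 FPKM with Cus-1 and 2.89 and 2.88 FPKM with busulfan.

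For 7 of the 9 genes the libraries had the same order, busulfan library 1 highest, then busulfan library 2, Cus-1 library 2 and Cus-1 library 1, an order found in 19.4% of all genes tested. Lum and Pdgfa were the exceptions. The genes with the profile nearest to Pdgfra over the 4 libraries were Plpp3, Pak6 and Grb14, with root mean square differences of 0.006, 0.017 and 0.033 on the centred log2 scale among 12363 genes searched. Nearest to Nr2f2 were Klf6, Fabp5 and Pkia, at 0.032, 0.046 and 0.051. Pdgfra and Nr2f2 themselves differed by 0.076, and Pdgfra and Pdgfa by 0.712. With 4 libraries many genes share such a profile.

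RefSeq promoter sequences (GRCm38.p6, the same build as mm10) were at hand for 4 of the 9 genes: Nr2f2, Tcf21 and Pdgfra, which were lower together, and Pdgfa, which was not. They are shown so that the promoters of genes that were lower can be set beside that of the one that was higher. The lines below run 5′ to 3′ on the strand of the gene and end 51 bases before the start site, with capitals for GGGCGG, the motif of Sp1. For Pdgfa, which has 2 start sites in the table, the stretch before the downstream one that lies outside annotated exons is given. The windows are chr7:70366797-70366996 and chr10:22820194-22820393 on the minus strand, chr5:75152001-75152200 on the plus strand, and chr5:138994332-138994398 on the minus strand.
Nr2f2: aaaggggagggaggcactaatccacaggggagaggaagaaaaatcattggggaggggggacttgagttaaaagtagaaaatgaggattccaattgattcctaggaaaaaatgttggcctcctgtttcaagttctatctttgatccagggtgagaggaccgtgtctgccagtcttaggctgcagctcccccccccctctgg
Tcf21: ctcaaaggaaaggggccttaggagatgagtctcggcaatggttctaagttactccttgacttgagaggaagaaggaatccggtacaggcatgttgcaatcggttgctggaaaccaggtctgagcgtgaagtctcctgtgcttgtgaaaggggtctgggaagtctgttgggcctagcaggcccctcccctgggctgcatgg
Pdgfra: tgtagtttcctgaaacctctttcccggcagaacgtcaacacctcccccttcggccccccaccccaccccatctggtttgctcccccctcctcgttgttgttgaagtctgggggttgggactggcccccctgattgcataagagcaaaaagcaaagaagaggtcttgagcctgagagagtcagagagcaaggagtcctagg
Pdgfa: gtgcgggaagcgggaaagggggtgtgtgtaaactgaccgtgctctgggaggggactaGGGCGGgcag
The 250 bases before each start were searched on both strands for AGGTCA (a half-site of nuclear receptors such as COUP-TFII), CAGCTG (an E-box), GGGCGG and TATAAA. No letters of these motifs were found in the windows of Nr2f2, Tcf21 and Pdgfra. Pdgfa had 1 GGGCGG before its downstream start and 2 on the other strand before its upstream start. Of 32851 RefSeq promoters, 14% held AGGTCA, 13% CAGCTG, 32.7% GGGCGG and 12.4% TATAAA. The Pdgfa windows were rich in G and C, at 66.4% and 72.4%, against 50% for Nr2f2, 52.4% for Tcf21 and 54.4% for Pdgfra.

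Other genes of the PDGF system were mostly lower with Cus-1. Of 10 listed ligand, receptor-like and ligand-processing genes, all tested, 7 lay lower with Cus-1 without overlap, 0 lay higher and 3 overlapped. Without overlap, 31.7% of all genes tested were lower and 36.6% higher. The median log2 fold change of the 10 was -0.61. None passed the adjusted threshold, and 4 were lower at an unadjusted p under 0.05 (9.96% of all genes), a count of 0 without busulfan library 1, 2 without Cus-1 library 1 and 6 without Cus-1 library 2. The remaining ligand genes overlapped: Pdgfc was at 7.4 and 8.32 FPKM with Cus-1 and 14.14 and 7.21 FPKM with busulfan, and Pdgfd was at 4.01 and 8.43 FPKM with Cus-1 and 10.66 and 7.8 FPKM with busulfan. Pdgfc was thus at -0.33 over all libraries and at 0.11 without busulfan library 1.

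The proteases that free the C and D ligands had lower values with Cus-1, without overlap. Plat, tissue plasminogen activator, which cleaves PDGF-C, was at 15.85 and 15.22 FPKM with Cus-1 and 23.63 and 23.87 FPKM with busulfan (log2 fold change -0.58, SE 0.15, limma adjusted p = 0.152). Plau, urokinase, which cleaves PDGF-D, was at 4.04 and 4.97 FPKM with Cus-1 and 6.84 and 6.32 FPKM with busulfan. Plat had groups well apart and libraries of a group close together. The groups of Plau lay less far apart beside the gap between its Cus-1 libraries (log2 fold change -0.47, SE 0.21, limma adjusted p = 0.211). Of the proprotein convertases, which process PDGF-A and PDGF-B, Furin (log2 fold change -0.70, SE 0.27, and -0.38 without busulfan library 1) and Pcsk5 (-0.76, SE 0.26) lay lower with Cus-1 without overlap, while Pcsk6 (0.13, SE 0.25) overlapped.

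Nrp1, neuropilin-1, a co-receptor for VEGF and other ligands, had the largest difference of this list. It was at 5.02 and 8.46 FPKM with Cus-1 and at 16.59 and 14.27 FPKM with busulfan (log2 fold change -1.12, SE 0.28, limma adjusted p = 0.152, and 0.0218 to 0.517 with 1 library left out). Sparc, a matrix protein that binds PDGF-B, was its most abundant gene, at 538.29 and 730.02 FPKM with Cus-1 and 1122.4 and 935.35 FPKM with busulfan, and its limma adjusted p with 1 library left out ran from 0.0381 to 0.533. For both genes the lowest p was without Cus-1 library 2, where 2289 of all genes passed. The receptor-like gene Pdgfrl was at 3.23 and 5.33 FPKM with Cus-1 and at 6.98 and 7.02 FPKM with busulfan.

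**Figure D3:**
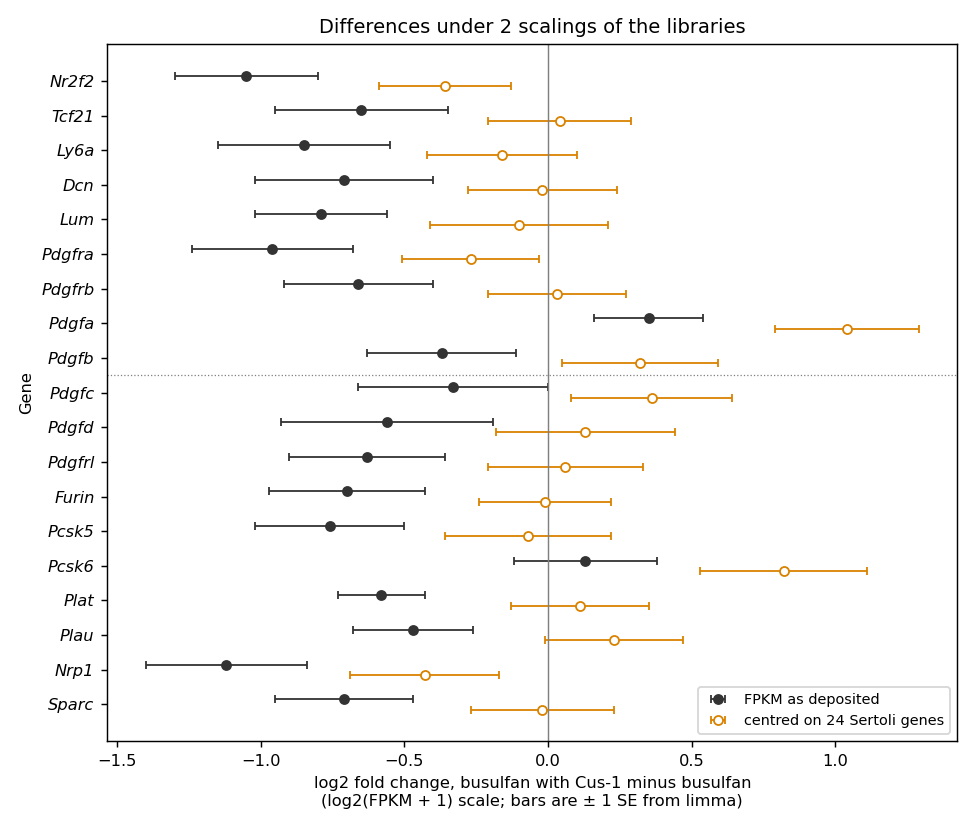
log2 fold change, busulfan with Cus-1 minus busulfan, for the 9 genes (above the dotted line) and 10 listed PDGF ligand, receptor-like and ligand-processing genes. Bars are 1 SE from limma. Filled points use FPKM as deposited, and open points use libraries centred on 24 Sertoli genes, under which Pdgfa lies at 1.04 and Dcn at -0.02.

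Downstream of the receptors the differences were smaller. Of 27 signal transduction genes, 18 were lower and 4 higher in both Cus-1 libraries, with a median of -0.35, and 6 were lower at an unadjusted p under 0.05, a count of 0 without busulfan library 1 and 1 without Cus-1 library 1. Of all genes, 31.7% were lower and 36.6% higher without overlap, and 9.96% were lower unadjusted. Grb2, the adaptor that links receptor tyrosine kinases to Ras, was at 29.73 and 35.12 FPKM with Cus-1 and at 63.15 and 49.11 FPKM with busulfan (log2 fold change -0.77, SE 0.19, limma adjusted p = 0.152). Stat3, a transcription factor that growth factor and cytokine receptors activate, was at -0.60 (SE 0.16). The most abundant were Mapk3, which encodes the kinase ERK1, at -0.32 (SE 0.19), and Fyn, a Src family kinase, at -0.47 (SE 0.17). Without busulfan library 1 they were at -0.10 and -0.31, and Mapk3 was at -0.54 without busulfan library 2. These genes are used by most cell types.

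Most other genes of the stroma had lower values with Cus-1. Of 26 tested of 31 fibroblast and mesenchymal genes, 19 were lower and 4 higher in both Cus-1 libraries, with a median of -0.63 and 12 lower at an unadjusted p under 0.05 (3 without busulfan library 1 and 8 without Cus-1 library 1), against 31.7% and 9.96% of all genes for the counts of lower genes. None passed the adjusted threshold, and Fn1 (0.36, SE 0.21), Fbln1 (0.33, SE 0.22) and Postn (0.22, SE 0.21), matrix genes named after their values were seen, were among the higher ones. Col3a1, a fibrillar collagen, was at 16.66 and 21.81 FPKM with Cus-1 and at 40.93 and 33.81 FPKM with busulfan (log2 fold change -0.93, SE 0.20, limma adjusted p = 0.152). Col6a3, of collagen VI, was at -1.01 (SE 0.24), and the actin-severing gelsolin gene Gsn at -0.67 (SE 0.16). The C1 inhibitor gene Serping1 was at -0.98 (SE 0.29, -0.60 without busulfan library 1). The intermediate filament gene Vim was at -0.76 (SE 0.26, -0.45 without Cus-1 library 1). Vim also stands in the Sertoli list used below.

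Among 18 tested of 22 regulators of interstitial and Leydig progenitors, 15 were lower and 0 higher in both Cus-1 libraries (median -0.57), and 5 were lower at an unadjusted p under 0.05, a count of 1 without busulfan library 1, 8 without busulfan library 2 and 3 without Cus-1 library 1. The shares of all genes were 31.7% lower without overlap and 9.96% lower unadjusted. Lifr, the receptor for leukaemia inhibitory factor, had the largest difference, at 11.7 and 10.68 FPKM with Cus-1 and 56.48 and 23.07 FPKM with busulfan (log2 fold change -1.61, SE 0.43, limma adjusted p = 0.152, and -0.98 without busulfan library 1). Ptch1, the hedgehog receptor and a target of that pathway, was at 6.58 and 8.3 FPKM with Cus-1 and at 18.67 and 13.23 FPKM with busulfan. Thra, a thyroid hormone receptor gene, was at -0.70 (SE 0.20), and Gata4, a factor of testicular somatic cells, at -0.51 (SE 0.20, -0.28 without busulfan library 1). Of the Ly6 family beyond Ly6a, 6 of 20 listed genes were tested: 4 overlapped, and without overlap 1 was lower and 1 higher with Cus-1. Of all genes tested, 31.7% were lower and 36.6% higher without overlap. Ly6e was at 80.12 and 185.26 FPKM with Cus-1 and 193.18 and 180.27 FPKM with busulfan, only Cus-1 library 1 being low, and Ly6k was at 149.2 and 100.0 FPKM with Cus-1 and 61.21 and 114.69 FPKM with busulfan. Ly6h was at 0.79 and 0.99 FPKM with Cus-1 and at 5.77 and 1.53 FPKM with busulfan, so its difference of -1.13 (SE 0.51) rested mainly on busulfan library 1. Ly6g6c was at 0.79 (SE 0.41), and at 0.33 without Cus-1 library 1, 0.52 without busulfan library 1 and 1.25 without Cus-1 library 2.

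Set beside other cell types, the median of the 9 genes was near that of Sertoli genes (-0.73 over 24) and macrophage genes (-0.75 over 18). The medians were -0.50 for 19 Leydig, -0.46 for 17 endothelial, -0.61 for 11 pericyte and -0.34 for 17 peritubular myoid genes. The 18 germ cell genes had a median of 1.10. Sertoli genes were lower without overlap in 23 of 24 (31.7% of all genes were), with a sum of 4695 and 5547 FPKM with Cus-1 and 9495 and 7467 FPKM with busulfan. Macrophage genes were in 16 of 18, with 456 and 650 FPKM with Cus-1 against 1060 and 828 FPKM with busulfan, and Leydig genes in 14 of 19, with 17560 and 25411 FPKM with Cus-1 against 35408 and 34929 FPKM with busulfan. No test of the difference between these lists was run. Tissue that adheres to a testis was checked by its markers. Of 10 epididymis and fat genes in the table, summed FPKM was 19.4 and 24.7 with Cus-1 and 56.8 and 43.6 with busulfan, with the fat genes Fabp4 and Cfd at -1.54 (SE 0.26) and -2.37 (SE 0.33). The epididymal gene Spink8 was at 10.4 and 11.03 FPKM with Cus-1 and 37.4 and 12.69 FPKM with busulfan, busulfan library 1 standing apart. Rnase10, also epididymal, overlapped at 2.8 and 2.62 FPKM with Cus-1 and 1.68 and 3.03 FPKM with busulfan, and the fat gene Plin1 overlapped at 3.42 and 6.8 FPKM with Cus-1 and 4.17 and 11.58 FPKM with busulfan. Adam7, Crisp1 and Cidec were below 1 FPKM in each library. Mesothelial genes summed to 70.2 and 67.1 FPKM with Cus-1 and 119 and 84.6 FPKM with busulfan, most of it Wt1, which Sertoli cells also express. The part of fat or mesothelium in the stromal values was not tested.

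**Figure D4:**
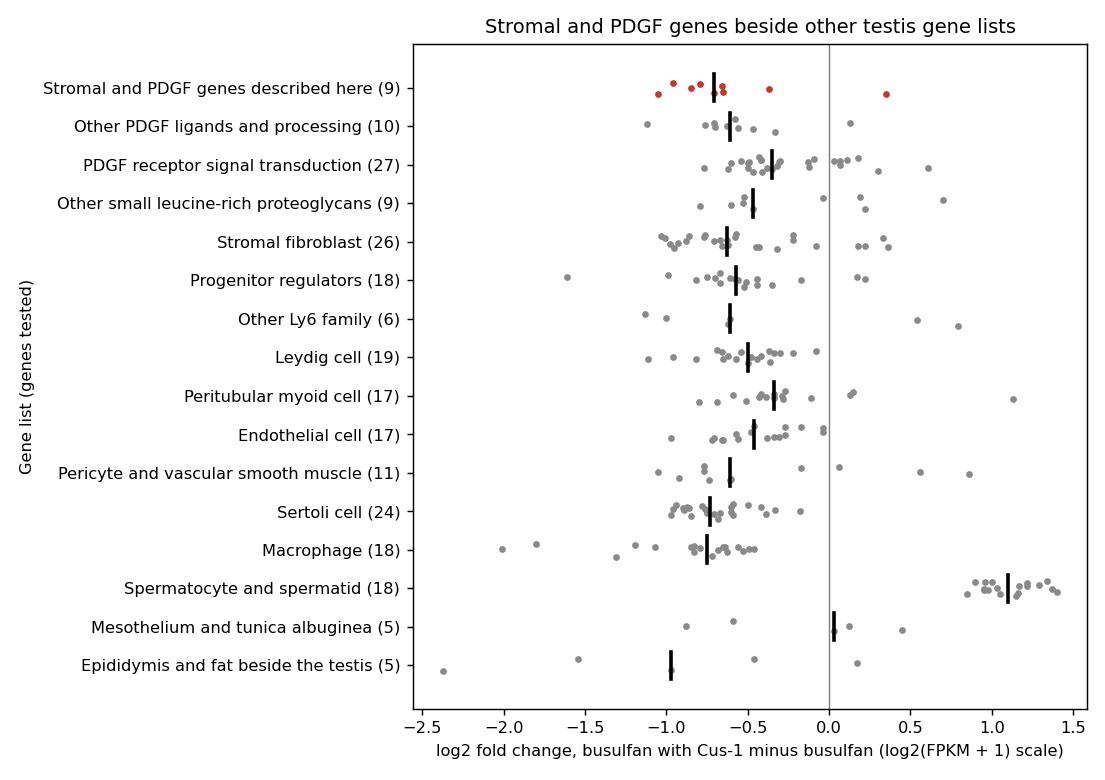
log2 fold change, busulfan with Cus-1 minus busulfan, of each tested gene by list, with a black bar at each list's median and the number of genes tested in brackets. The 9 genes described here (red) have a median of -0.71, near those of Sertoli and macrophage genes, with Pdgfa alone above 0.

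Centring each library on the Sertoli list changed these values, and it moved the median of all genes to 0.73. On that scale the median of the 9 was -0.02 and their count at an unadjusted p under 0.05 was 1. Pdgfa was at 1.04 (SE 0.25, limma adjusted p = 0.0553), Nr2f2 at -0.36 (SE 0.23), Pdgfra at -0.27 (SE 0.24) and Ly6a at -0.16 (SE 0.26), while Tcf21 and Pdgfrb turned to 0.04 and 0.03 and Pdgfb to 0.32. Centred on Leydig genes, Pdgfa was at 0.89 (SE 0.47) and the median of the 9 was -0.17, with Pdgfb at 0.17. Under both centrings Pdgfa was the highest of the 9 and Nr2f2 the lowest, as without centring. A centring adds the same amount to the fold change of every gene, so it cannot change this order.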

How the data were processed

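The authors deposited 1 table of FPKM per gene and library, to 2 decimals. Per the submitters' processing notes, mm10 was the build. For the aligner, counter, annotation, strand setting and gene lengths, the entry is not given in the sources used here. Without a strand setting, reads of a gene and its antisense partner cannot be told apart. Of 45536 rows, 910 without a gene name (0.641% to 0.688% of summed FPKM) were left out, and of a symbol on several rows the highest row was used. Columns were matched by library name.

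A gene was tested if 2 or more libraries reached 1 FPKM. After adding 1 FPKM and taking log2, limma 3.58.1 (R 4.3.3) was fitted with its trend option, and p-values of all 19837 genes were adjusted by Benjamini-Hochberg at 0.05. The fit was tested on simulated data with noise drawn separately for each gene, which leaves out shifts shared between genes. Ratios were tested by exact permutation. Positions, overlaps and shared 50-base words came from GENCODE M21. Depth was estimated from the first peak of FPKM times length in genes with 1 transcript, if that peak is 1 fragment, and fragment numbers use that depth. The 9 genes and 15 other lists were chosen with earlier results of these data known. The rule for naming took every gene of the PDGF ligand list, in each other list the 3 smallest p and the 2 highest means, and the 3 genes most like Pdgfra and Nr2f2. A gene that the rule names in the signalling list is not reported here. Lists of other cell types are given here by counts and sums instead, and Kera, Adam7, Crisp1, Cidec, Rnase10, Fn1, Fbln1 and Postn were named after their values were seen. Alternatives changed the pseudocount, filter, scaling, variance model and libraries.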

Additional observations from a re-analysis of the deposited data

How the results depend on the processing

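Of 115 values of the 9 genes, 111 kept their sign and 4 did not. The 115 come from 13 alternatives and from an untested value for Ly6a and Ly6c1 summed, which was -0.72. The 4 arose from centring on Sertoli or Leydig genes. Centred on Sertoli genes, values turned positive for Tcf21 (0.04), Pdgfrb (0.03), Pdgfb (0.32), Pdgfc (0.36), Pdgfd (0.13), Pdgfrl (0.06), Plat (0.11), Plau (0.23), Bgn (0.17), Ogn (0.10), Ly6c1 (0.07), Ly6e (0.08), Gsn (0.02), Gata4 (0.18), Stat3 (0.09), Fyn (0.22) and Mapk3 (0.37). Centred on Leydig genes, they did for Pdgfb (0.17), Pdgfc (0.20), Plau (0.07), Bgn (0.01), Gata4 (0.03), Fyn (0.07) and Mapk3 (0.21). These centrings moved the median of all genes to 0.73 and 0.58, and that of the 9 to -0.02 and -0.17.

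Of all genes, 4251 passed the adjusted threshold when centred on Leydig genes, 0 to 2289 with 1 library left out, and 0 of 19837 in limma as described, where 5551 passed unadjusted. The unadjusted count was 9553 centred on Sertoli genes (9488 higher, 65 lower), and 1604 to 6294 with 1 library left out, lowest without busulfan library 1. Centred on Leydig genes 6596 were higher and 96 lower, and after quantile scaling 2831 and 2697. Of the 9 genes, 1 passed unadjusted on Sertoli genes and 0 on Leydig genes, and 1 to 6 with 1 library left out. With 1 library left out 0 to 2 passed adjusted, and their median ran from -1.03 to -0.44. A lone library was then assumed to vary like the other group. Pdgfc ran from -0.77 to 0.11 and Pcsk6 from -0.07 to 0.33. Except where a construction shows it, the cause was not tested. A filter of 5 FPKM left Lum, Pdgfb and Pdgfrb out of the test. With 2 libraries a group and few fragments for Lum and Pdgfb, small differences could not be resolved. No paired analysis was possible because the labels of the groups share no replicate number.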
